A study of Canis lupus familiaris with 24 samples.

Results

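Untreated MDCK-NBL2 cells were compared with untreated MDCK-II cells at day 0, before any treatment began in the study. The comparison takes 6 of the 24 RNA-seq libraries of the series, 3 from each line, chosen by the cell line, treatment and time in their labels. MDCK (Madin-Darby canine kidney) cells are an established epithelial line from dog kidney. All 6 libraries were labelled untreated, day 0 and epithelial, so the line was the only labelled difference between the groups. The rest of the series comprised both lines untreated at day 4, both lines at day 4 of TGFb treatment, and MDCK-NBL2 cells given TGFb together with the siRNA siCTR or siPRRX1. The labels number the replicates 1 to 3 but do not tell if each came from its own culture. The p-values therefore reflect only scatter among libraries, which may be technical. That scatter was estimated over all 24 libraries of the series, in 8 groups. The labels give no passage number or clone for either line.

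Dog kidney MDCK cultures are a textbook model of polarized epithelium, in which E-cadherin junctions hold cells in a sheet and tight junctions close the space between them. NBL-2 is the name under which the parental MDCK population is distributed, and MDCK-II is a strain obtained from such cultures. MDCK strains are known to differ in the leakiness of their tight junctions, a property linked to the pore-forming claudin encoded by CLDN2. The 2 lines of this study are labelled with different outcomes under TGFb, a partial transition in MDCK-II and a full one in MDCK-NBL2, and the day 0 libraries show what separated them beforehand.

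Both lines carried the defining epithelial markers at day 0. CDH1, which encodes E-cadherin, was at 937, 905 and 927 counts per 1000000 (CPM) in the MDCK-II libraries and at 1010, 1280 and 1120 CPM in the MDCK-NBL2 libraries. The adhesion molecule EPCAM was at 450, 513 and 542 CPM in MDCK-II and at 370, 425 and 515 CPM in MDCK-NBL2, so these groups overlapped. PAX8, a transcription factor of kidney epithelium, was at 150, 145 and 135 CPM against 102, 121 and 120 CPM. The log2 differences, MDCK-NBL2 minus MDCK-II with their standard error (SE), were 0.30 ± 0.16 for CDH1, -0.20 ± 0.20 for EPCAM and -0.32 ± 0.28 for PAX8, and none passed the test (adjusted p = 0.18, 0.51 and 0.43, n = 3 a line). VIM, the intermediate filament vimentin that cultured epithelia often express, was at 7480, 6590 and 7100 CPM in MDCK-II and at 6220, 5390 and 4530 CPM in MDCK-NBL2 (-0.39 ± 0.27, adjusted p = 0.31). CDH16, the kidney cadherin, stood at 0.72 CPM or less in every library. No gene of the table carried the symbols KRT8 or KRT18, so these markers were not analysed here.

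One library stood apart before any test. Of the genes detected in MDCK-II, 75 were near absent from MDCK-NBL2 replicates 2 and 3, meaning at least 5 CPM in each MDCK-II library and under 0.5 CPM in both of those. MDCK-NBL2 replicate 1 held all 75 of them above both other replicates, at a median of 10% of the MDCK-II level (quartiles 7.88% and 13.6%, range 3.59% to 34%). For 69 of the 75 the share lay between 5% and 20%. In replicates 2 and 3 the median share was 0.233% and 0%. What brought this signal into replicate 1 was not tested. Fold changes of genes lower in MDCK-NBL2 are therefore given without replicate 1 wherever that library moves them, and levels are given for every library.

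**Figure D1:**
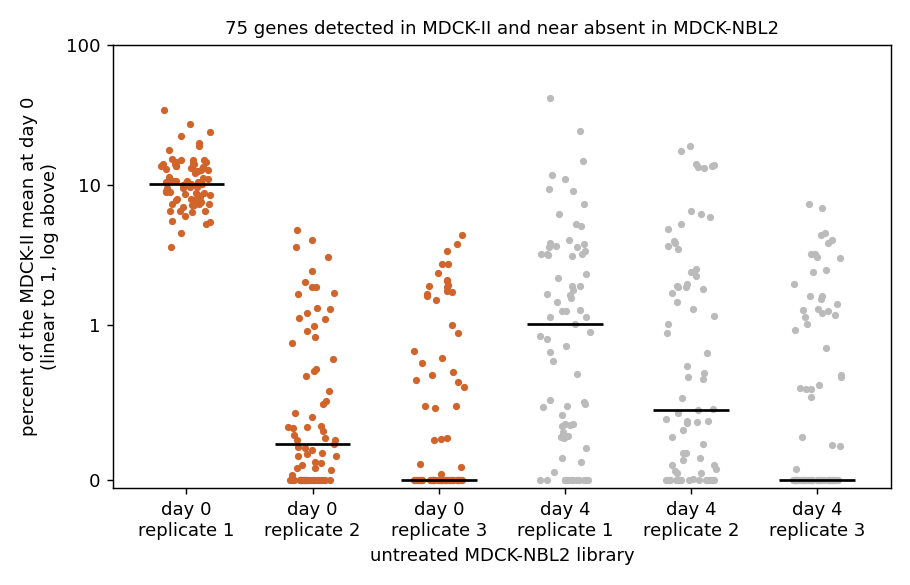
Level of each of the 75 genes detected in MDCK-II and near absent from MDCK-NBL2 replicates 2 and 3, as a percent of the mean MDCK-II level at day 0 (vertical axis, linear to 1 and logarithmic above), in the 6 untreated MDCK-NBL2 libraries. Points are genes and black lines medians; replicate 1 at day 0 sits around its median of 10%, and the other libraries have medians from 0% to 1.02%.

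Depth differed more between replicate numbers than between lines. Total counts were 13009203, 23297302 and 7633467 in MDCK-II and 12744114, 27066739 and 6783222 in MDCK-NBL2. Log levels correlated at 0.99 or more among the MDCK-II libraries, at 0.968 or more among the MDCK-NBL2 libraries and at 0.903 or less between lines. Since these are bulk libraries, fewer cells of a type and less RNA per cell cannot be told apart in any value below.

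The lines differed in a large share of their transcriptome. Of 12466 genes tested, 3558 (28.5%) were called at an adjusted p under 0.05, with 1839 (14.8%) higher in MDCK-NBL2 and 1719 (13.8%) lower. Among them, 935 were at least 2-fold higher and 829 at least 2-fold lower. Without MDCK-NBL2 replicate 1 the counts were 1600 higher and 1496 lower, and 2943 genes were called in both fits. Leaving out MDCK-NBL2 day 4 replicate 2, a library outside the contrast described below, gave 4271 calls at day 0. The fit of the 6 day 0 libraries alone gave 5017. The libraries of the 2 lines did not overlap in 6941 of the genes tested (55.7%) and in 3531 of the 3558 called (99.2%), so a lack of overlap is common here. The median log2 difference over all genes tested was -0.04. The common biological coefficient of variation across the series was 21.9%.

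**Figure D2:**
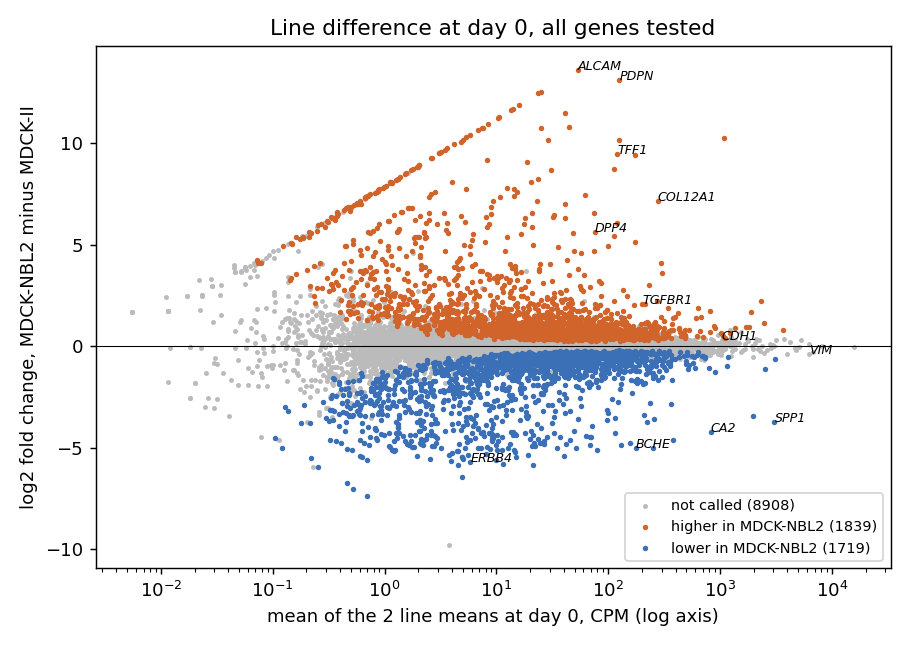
Log2 fold change, MDCK-NBL2 minus MDCK-II at day 0 (vertical axis), against the mean of the 2 line means in CPM (horizontal log axis) for the 12466 genes tested. Orange points are the 1839 genes called higher in MDCK-NBL2, blue points the 1719 called lower and grey points the genes not called; the straight upper edge holds genes with no count in MDCK-II, whose fitted fold change depends on the prior count.

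The genes with the largest differences upward in MDCK-NBL2 were detected in each of its libraries and had no count, or at most 2 counts, across the MDCK-II libraries. They encode surface proteins, a gap junction channel, growth factor and matrix proteins, a lipid enzyme and a urothelial protein. ALCAM, an adhesion molecule of the immunoglobulin family, was at 64.4, 105 and 152 CPM in MDCK-NBL2 and had no count in MDCK-II, at least 1620-fold higher when 3 counts over its libraries are allowed as a floor (adjusted p = 9.8e-09). PDPN, the membrane mucin podoplanin, was at 296, 141 and 319 CPM against a single count in MDCK-II replicate 2, a ratio of 10100 (95% counting interval 1810 to 399000, adjusted p = 1.7e-08). GJA1, the gap junction channel connexin 43, was at 67.7, 39.5 and 44.3 CPM and at least 773-fold higher (adjusted p = 3.1e-06). A lack of overlap between the lines was a condition for naming the genes with the largest differences. Such intervals and floors cover counting error only.

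Several of these genes stood highest in MDCK-NBL2 replicate 1, the library set apart above, although they were not MDCK-II genes. AREG, the EGF receptor ligand amphiregulin, was at 91.3 CPM in replicate 1 against 26 and 24.5 CPM in replicates 2 and 3, with no count in MDCK-II (at least 706-fold higher, adjusted p = 1.9e-05). COL1A2, a chain of type I collagen, was at 68.3 CPM against 14.6 and 12.4 CPM, also with no count in MDCK-II (at least 469-fold, adjusted p = 0.00057). Without replicate 1 both remained called, with fitted log2 differences of 11.54 in place of 12.44 for AREG (adjusted p = 2.8e-05) and 10.64 in place of 11.87 for COL1A2 (adjusted p = 0.0014). ADAM12, a membrane metalloprotease, was at 45.3, 17.8 and 21.1 CPM and at least 417-fold higher (adjusted p = 2.5e-05). Over the 46 genes near absent from MDCK-II, replicate 1 stood at a median of 93.8% of the mean of replicates 2 and 3, and 5 genes were at least 2-fold above that mean and 4 at least 2-fold below it.

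TGFB1I1, a focal adhesion adaptor, was at 26.3, 27.4 and 27.1 CPM with no count in MDCK-II, at least 436-fold higher (adjusted p = 2.9e-06). FADS1, a fatty acid desaturase, was at 77.4, 88.2 and 81.5 CPM against 1 count in MDCK-II replicate 2, a ratio of 4070 (95% counting interval 730 to 161000, adjusted p = 1.2e-13). SCN9A, a voltage-gated sodium channel, was at 100, 89.1 and 76.9 CPM, a ratio of 2180 (604 to 18000, adjusted p = 6.8e-13). In these 3 genes the MDCK-NBL2 libraries lay close together. APBB1IP, an adaptor of integrin activation, was at 33.2, 15.1 and 15.6 CPM (at least 325-fold, adjusted p = 2.1e-07). PLBD1, a phospholipase B-like protein, was at 4.43, 22.4 and 35.7 CPM (at least 310-fold, adjusted p = 2.2e-05), and the urothelial plaque protein UPK3A at 3.05, 15.6 and 26.5 CPM (at least 220-fold, adjusted p = 7.5e-05). APBB1IP was highest in replicate 1 and the other two were lowest there.

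The genes with the largest differences downward encode a kidney growth factor and its family's receptor, a paracellular pore, a lectin and receptors. SFTPD, the collectin surfactant protein D, was at 33.8, 47.9 and 43.1 CPM in MDCK-II and at 1.87, 0.132 and 0.269 CPM in MDCK-NBL2 (adjusted p = 5.5e-07). The log2 difference was -5.85 ± 0.60, or -7.92 without MDCK-NBL2 replicate 1 (adjusted p = 3e-08) and -5.07 without replicate 2 (adjusted p = 4e-06). EGF, the epidermal growth factor made by the distal nephron, was at 62.8, 81 and 91.2 CPM against 5.47 CPM in replicate 1 and no count in replicates 2 and 3. ERBB4, a receptor of the EGF receptor family, was at 10.4, 11.9 and 12.2 CPM against 0.693 CPM in replicate 1 and no count in the others. Without replicate 1, EGF was at least 971-fold lower and ERBB4 at least 144-fold lower (adjusted p = 2.8e-07 and 2.9e-07, against 1e-04 and 1.4e-05 with it).

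CLDN2 was at 6.56, 12.1 and 13.6 CPM in MDCK-II, at 0.831 CPM in MDCK-NBL2 replicate 1 and without a count in replicates 2 and 3. It was at least 134-fold lower without replicate 1 (adjusted p = 0.02, or 0.018 with it), and its adjusted p was 0.081 without replicate 2 and 0.057 without replicate 3, so that call depends on these libraries. The chloride intracellular channel protein CLIC2, the semaphorin receptor PLXNA4 and the sugar transporter SLC5A9 had no count in MDCK-NBL2 replicates 2 and 3, at least 361-fold, 279-fold and 208-fold lower without replicate 1. TGFBR3, the TGF-beta co-receptor betaglycan, was at 16.4, 21.4 and 20.9 CPM against 1.59, 0.0992 and 0 CPM, a ratio of 249 without replicate 1 (84.9 to 1210, adjusted p = 2.4e-07). OSR1, a transcription factor of early kidney, was at 143, 139 and 185 CPM against 12.3, 0.331 and 0.404 CPM (adjusted p = 6.2e-05, or 1.5e-08 without replicate 1). The nuclear pore protein NUP210, the microtubule protein DCDC2 and the muscarinic receptor CHRM4 completed the 12, at adjusted p = 4.5e-05, 0.00091 and 1e-04. Among the 79 named genes called lower, leaving out MDCK-NBL2 replicate 1 moved 42 by over 1.5 times, to log2 differences between -13.23 and -2.40. Leaving out replicate 2, which left replicate 1 with more weight, moved 34 of them to between -5.07 and -2.89.

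**Figure D3:**
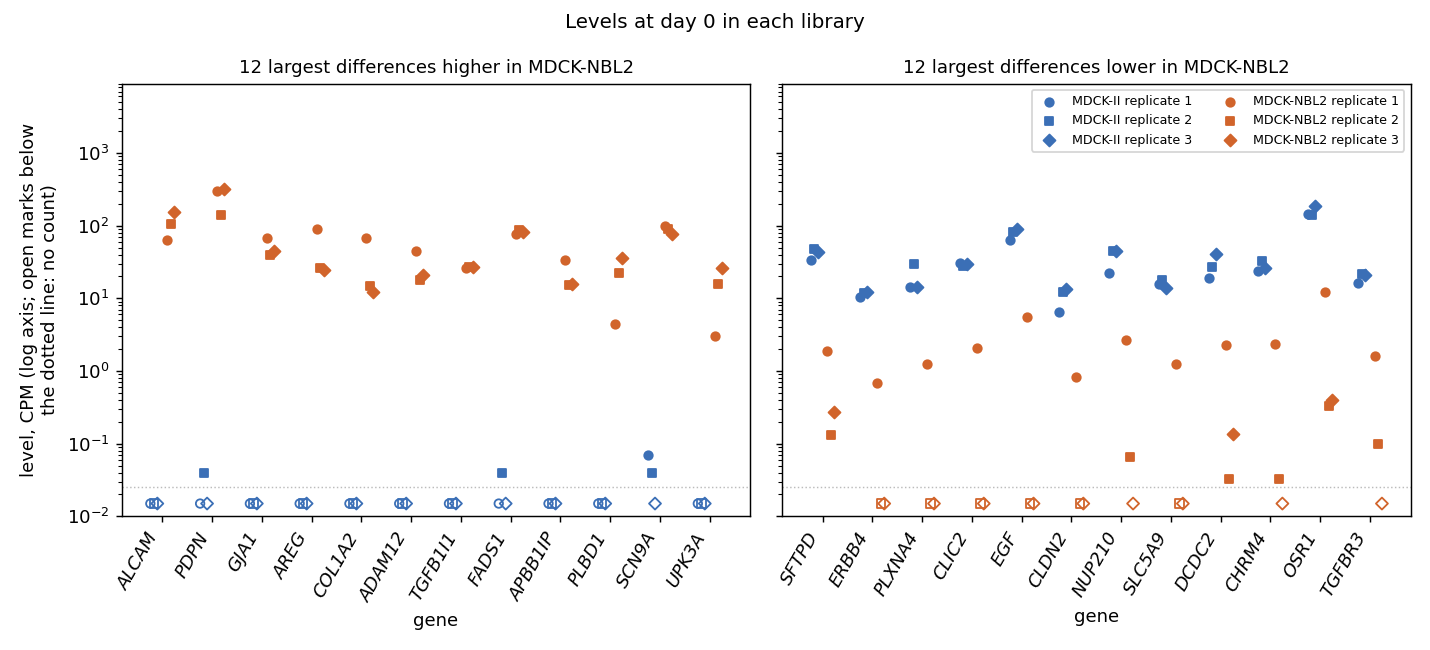
Level in CPM (vertical log axis) of the 12 genes with the largest differences in each direction, in each of the 3 MDCK-II (blue) and 3 MDCK-NBL2 (orange) libraries at day 0; shapes mark the replicate and open marks below the dotted line a library with no count. The genes of the left panel have 2 or fewer counts over MDCK-II, and in the right panel MDCK-NBL2 replicate 1 lies between the lines.

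Near absence from one line was found for 75 genes in MDCK-NBL2 and 46 in MDCK-II. These sets were chosen by their day 0 levels, and what follows describes them. BCHE, the butyrylcholinesterase, had the highest level of the first set, with 337, 353 and 337 CPM in MDCK-II against 30.8, 0 and 0.135 CPM. PTPRD, a receptor tyrosine phosphatase, was at 295, 316 and 305 CPM against 32.4, 0.0992 and 0.269 CPM, and DAO, the D-amino acid oxidase of proximal tubule, at 247, 296 and 219 CPM against 25.5, 0.198 and 0.269 CPM. For each of the 3, replicate 1 sat near 10% of the MDCK-II level and the other replicates near 0. The set also held SLITRK4, a synaptic adhesion protein, the phosphatase PTPRG, the phosphodiesterase PDE1A, the proprotein convertase PCSK5, the teneurin TENM4 and the membrane repair protein DYSF. In all, 20 of the 75 genes had no count in MDCK-NBL2 replicates 2 and 3.

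The 46 genes near absent from MDCK-II included, beside those above, NID2, a basement membrane nidogen, at 253, 206 and 285 CPM against 0.345, 0.157 and 0.12 CPM. TTC22 was at 32.8, 81.7 and 70.7 CPM against 0.069, 0.196 and 0.12 CPM. IQGAP2, a scaffold that binds actin and small GTPases, was at 41.6, 58.5 and 50.2 CPM against 1 count in MDCK-II. The separation of the lines in these genes follows from how the set was chosen. The sialyltransferase ST8SIA6, the mucin-type glycosyltransferase GALNT16, the stem cell surface protein PROM1, the lipid transfer protein STARD10 and the tubule transcription factor IRX2 also belonged to this set. Of the 46, 17 had no count in MDCK-II at day 0 and 11 had none in any of the 9 MDCK-II libraries, TGFb-treated ones included. These 11, listed after their values were seen, were ADAM12, APBB1IP, ARMCX3, COL1A2, DLC1, FREM1, GJA1, MREG, PLCB1, SLC2A10 and TGFB1I1.

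Part of this line restriction was still present 4 days later. In untreated day 4 libraries, leaving out MDCK-NBL2 replicate 2, a library described below, 51 of the 75 genes were still under 0.5 CPM in MDCK-NBL2, 57 were still at 5 CPM or more in each MDCK-II library and 36 met both conditions. Of the 46 genes, 40 were still near absent from MDCK-II, 40 were still detected in MDCK-NBL2 and 35 met both. Few of them were at 5 CPM or more in every TGFb-treated library of the line that lacked them. CTBS, a lysosomal chitobiase, reached 7.87, 11.9 and 13.8 CPM in TGFb-treated MDCK-NBL2 libraries and DYSF 43.2, 17.1 and 12.5 CPM, and these were the 2 of the 75 at 5 CPM or more in all 3. In TGFb-treated MDCK-II, GALNT16 was at 5.51, 6.28 and 7.36 CPM and CAPN14, a calpain chosen after its values were seen, at 9.57, 44.8 and 29 CPM, the 2 of the 46. Genes under 0.5 CPM in all 3 libraries of the lacking line given TGFb without siRNA numbered 46 of 75 and 29 of 46. MDCK-NBL2 libraries given siRNA were not counted in these TGFb values. No run of 3 or more neighbouring detected genes was restricted to one line. The only neighbours, named after their values were seen, were the tryptophan-degrading enzymes IDO1 and IDO2 in MDCK-II and APBB1IP with the myosin MYO3A in MDCK-NBL2.

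Kidney tubule genes were split between the lines, with more loop and distal tubule genes called lower than higher in MDCK-NBL2 and more collecting duct genes called higher than lower. Of 11 tested loop of Henle and distal tubule genes, 5 were lower, 1 was higher and 5 were not called, with a median log2 difference of -1.47. Calls made up 54.5% of this list, beside 28.5% of all genes (13.8% lower and 14.8% higher). CLDN16, the claudin of magnesium reabsorption, was at 38.7, 38.1 and 39.5 CPM in MDCK-II against 3.46, 1.06 and 2.29 CPM (-4.16 ± 0.50, adjusted p = 3.6e-06). TRPM6, the distal magnesium channel, was at 7.45, 9 and 6.96 CPM against 1.18, 0.132 and 0 CPM (-4.13 ± 0.57, adjusted p = 1.7e-05, and -6.15 without MDCK-NBL2 replicate 1 and -3.46 without replicate 2). Both magnesium transport genes and EGF were therefore low in MDCK-NBL2 libraries. The potassium channel gene KCNJ15 was the member higher in MDCK-NBL2, at 0.554, 2.05 and 3.23 CPM with no count in MDCK-II (adjusted p = 0.00079).

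Of 19 collecting duct genes, 7 were higher and 2 lower (6 and 1 without MDCK-NBL2 replicate 1), with a median of 0.69. Calls made up 47.4% of this list, beside 28.5% of all genes. CFTR, the chloride channel, was at 4.85, 6.15 and 9.97 CPM in MDCK-NBL2 against 0.069, 0.196 and 0 CPM in MDCK-II (5.72 ± 0.80, adjusted p = 1.9e-05, and 7.03 without MDCK-II replicate 2). CA2, the cytosolic carbonic anhydrase, went the other way, at 1490, 1840 and 1370 CPM in MDCK-II against 206, 22.6 and 24.6 CPM (-4.21 ± 0.81, adjusted p = 0.00053, and -6.05 without replicate 1). Among 21 kidney identity genes, 4 were higher and 6 lower, a share called of 47.6%. PAX2, a transcription factor of kidney development, was at 28.9, 24.7 and 25 CPM against 6.37, 5.29 and 6.33 CPM (-2.14 ± 0.21, adjusted p = 3e-07). TFCP2L1, a collecting duct transcription factor, was higher, at 51.1, 74.1 and 66.7 CPM against 10.4, 12.3 and 7.32 CPM (2.66 ± 0.26, adjusted p = 2.9e-07).

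In the proximal tubule list, 3 of 12 tested genes were higher and 4 lower, a share called of 58.3%. DPP4, a brush border peptidase, was at 120, 152 and 175 CPM in MDCK-NBL2 against 3.8, 2.71 and 2.28 CPM (5.64 ± 0.25, adjusted p = 2.7e-12). CUBN, an endocytic receptor, was lower, at 7.07, 4.27 and 5.66 CPM against 28.8, 29.1 and 25 CPM (-2.30 ± 0.22, adjusted p = 2e-07). Of 27 HOX genes, which mark body position, 3 were higher and 6 lower, a share called of 33.3% beside 28.5% of all genes. HOXA11 was at 4.99, 4.76 and 5.12 CPM against 0.759, 1.1 and 1.8 CPM (2.08 ± 0.27, adjusted p = 9.7e-06), HOXA13 differed by 2.17 ± 0.25 (adjusted p = 2.6e-06) and HOXB13 by 1.80 ± 0.27 (adjusted p = 3.9e-05). HOXB5 was at 4.56, 4.24 and 6 CPM in MDCK-II and had no count in MDCK-NBL2 replicates 2 and 3, at least 58.3-fold lower without replicate 1, where it was at 0.831 CPM (adjusted p = 8.6e-07).

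**Figure D4:**
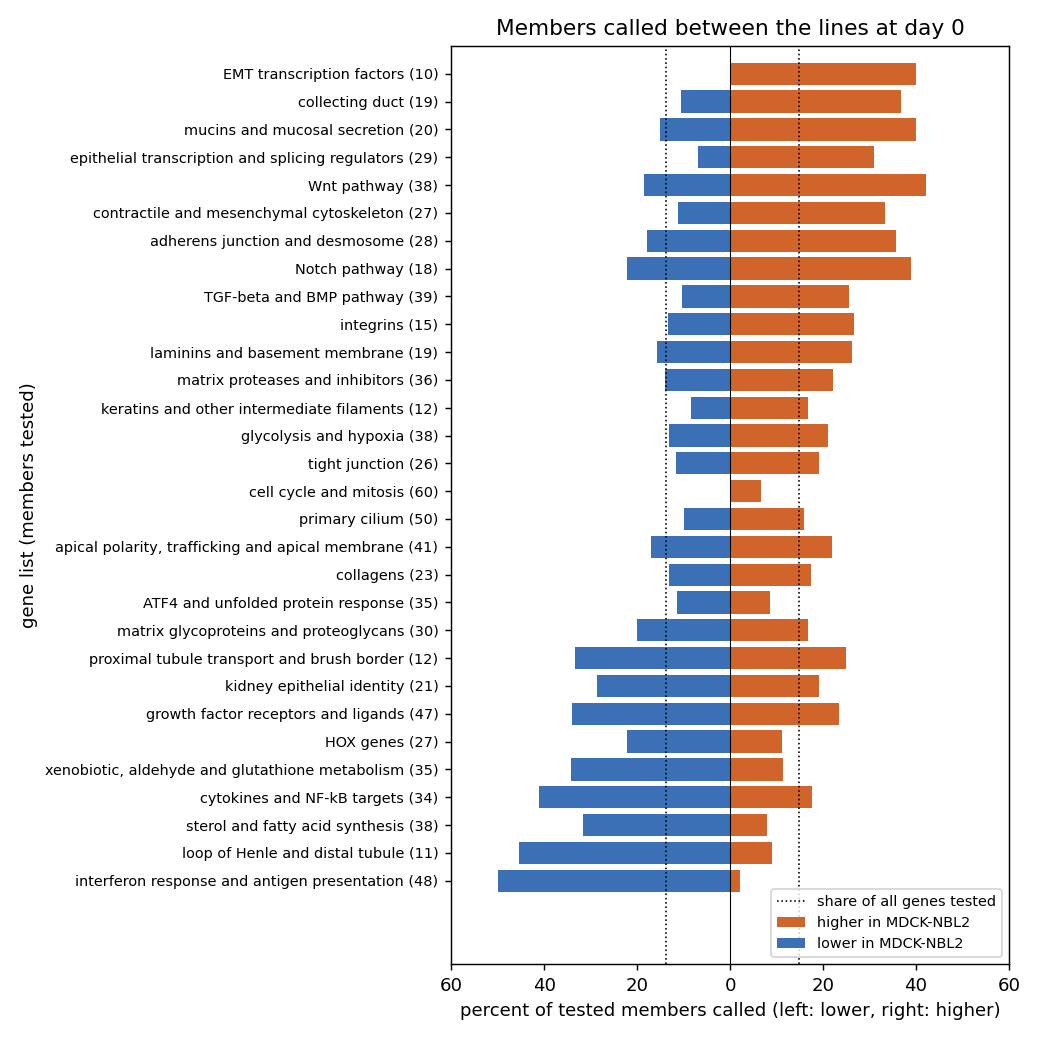
Percent of the tested members of each gene list called lower (blue, to the left) or higher (orange, to the right) in MDCK-NBL2 at day 0, for the lists described here with 10 or more tested members, with the number tested in brackets. Dotted lines mark the 13.8% and 14.8% of all genes tested; the interferon list lies far to the left, with 24 of 48 members lower and 1 higher.

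Of 28 adherens junction and desmosome genes, 10 were higher and 5 lower (7 and 4 without MDCK-NBL2 replicate 1). Calls made up 53.6% of this list, beside 28.5% of all genes. The desmosomal cadherins DSC3 and DSG3, typical of stratified epithelia, were higher in MDCK-NBL2, DSC3 at 140, 133 and 161 CPM against 27.8, 23.9 and 27.7 CPM (2.45 ± 0.18, adjusted p = 4.1e-09) and DSG3 at 484, 501 and 370 CPM against 114, 85.4 and 94.1 CPM (2.21 ± 0.27, adjusted p = 4.5e-06). NECTIN4, an adhesion molecule, was at 11.6, 21.5 and 20.2 CPM against 0.345, 0.0786 and 0 CPM (6.84 ± 0.84, adjusted p = 4.5e-06, and 8.05 without MDCK-II replicate 1). PKP4, a plakophilin, was lower, at 121, 144 and 142 CPM against 298, 324 and 376 CPM (-1.29 ± 0.23, adjusted p = 0.00021). Tight junction genes numbered 5 higher and 3 lower of 26, a share called of 30.8%, near that of all genes, with CLDN6 higher by 3.06 ± 0.31 (adjusted p = 4.4e-07) and the polarity protein PARD6B lower by a log2 difference of -0.81 ± 0.21 (adjusted p = 0.0054).

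Regulators of the epithelial state and of epithelial-mesenchymal transition (EMT) were both more often higher than lower in MDCK-NBL2. Of 29 epithelial transcription and splicing regulators, 9 were higher and 2 lower (9 and 1 without MDCK-NBL2 replicate 1). The share called was 37.9% beside 28.5% of all genes. GRHL3, a grainyhead factor of surface epithelia, was at 15.9, 33.4 and 33.3 CPM against 2.21, 2.79 and 1.44 CPM (3.60 ± 0.57, adjusted p = 7.7e-05). OVOL2, a repressor of EMT, was at 22.9, 24.4 and 25.3 CPM against 11.1, 11.2 and 9.96 CPM (1.16 ± 0.15, adjusted p = 9.7e-06), and ESRP1, which directs epithelial splicing, differed by 0.75 ± 0.14 (adjusted p = 0.00035). Of 10 EMT transcription factors, 4 were higher and none lower, a share called of 40%, with a median of 1.14. SNAI1, a repressor of CDH1, was at 17.9, 19.1 and 21.9 CPM against 8.49, 8.96 and 4.92 CPM (1.37 ± 0.33, adjusted p = 0.0038). PRRX2 differed by 1.80 ± 0.49 and FOXC2 by 1.17 ± 0.22 (adjusted p = 0.0086 and 0.00035).

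PRRX1, the mesenchymal homeobox factor that the study silenced later under TGFb, was low in both lines apart from one library. It was at 0.345, 0.236 and 0.24 CPM in MDCK-II and at 7.07, 0.661 and 0.404 CPM in MDCK-NBL2. The difference did not pass the test (3.30 ± 1.32, adjusted p = 0.067), and was 1.08 without MDCK-NBL2 replicate 1 (adjusted p = 0.66). Without replicate 2 or 3 of MDCK-NBL2 it passed, at adjusted p = 0.044 and just under 0.05. Of 12 tested keratin and other intermediate filament genes, 2 were higher and 1 lower (1 and 2 without MDCK-NBL2 replicate 1). The share called was 25% beside 28.5% of all genes. KRT27, a type I keratin, was at 12.5, 0.397 and 0.673 CPM in MDCK-NBL2 against 0.069, 0.0786 and 0.24 CPM, and its call (5.33 ± 1.88, adjusted p = 0.042) was lost without replicate 1, at 2.07 (adjusted p = 0.57). It was also lost without any 1 of the MDCK-II libraries (adjusted p = 0.11, 0.15 and 0.078), and was 5.94 without MDCK-NBL2 replicate 2. KRT5, the basal keratin, was at 5.06, 9.16 and 4.98 CPM against 1.52, 2.04 and 2.04 CPM (1.80 ± 0.41, adjusted p = 0.0021).

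Contractile and matrix genes were present in MDCK-NBL2 at day 0 without a shared direction across all lists. Of 27 contractile and mesenchymal cytoskeleton genes, 9 were higher and 3 lower, a share called of 44.4%, with a median of 0.77. CNN2, an actin-binding calponin, was at 41, 39 and 42.8 CPM against 1.31, 0.904 and 2.04 CPM (4.97 ± 0.63, adjusted p = 6.4e-06), and TAGLN2 differed by 1.01 ± 0.19 (adjusted p = 0.00041). CALD1, the actin-binding caldesmon, was at 10.7, 3.93 and 14 CPM with no count in MDCK-II, at least 117-fold higher (adjusted p = 0.018, or 0.069 without MDCK-II replicate 2). MYH10, a nonmuscle myosin heavy chain, was lower, at 23.9, 17.2 and 22.8 CPM against 74.9, 90.6 and 91.4 CPM (-2.02 ± 0.23, adjusted p = 1.9e-06).

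Of 23 collagen genes, 4 were higher and 3 lower, a share called of 30.4% beside 28.5% of all genes. COL12A1, which coats collagen fibrils, was at 225, 388 and 1040 CPM against 4.14, 2.24 and 5.88 CPM (7.13 ± 0.97, adjusted p = 1.4e-05, and 6.29 without MDCK-NBL2 replicate 3). COL6A1, a chain of the microfibrillar collagen VI, was at 24.1, 13.1 and 11.3 CPM against 0.414, 0.236 and 0.12 CPM (5.87 ± 0.87, adjusted p = 3.6e-05). COL5A3 was lower, at 0.416, 0.198 and 0.269 CPM against 3.52, 2.55 and 2.16 CPM (-3.25 ± 0.52, adjusted p = 8.6e-05). Among 19 laminin and basement membrane genes, 5 were higher and 3 lower, a share called of 42.1%. NID2 and FREM1, an epidermal basement membrane protein without a count in MDCK-II, were among the higher ones. FREM1 was at 10.4, 10.7 and 13.7 CPM, at least 178-fold higher (adjusted p = 1.5e-06). NTN1, the guidance factor netrin-1, was lower by a log2 difference of -2.69 ± 0.46 (adjusted p = 0.00016).

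Matrix receptors and proteases followed the same mixed pattern. Of 15 integrins, 4 were higher and 2 lower (3 and 1 without MDCK-NBL2 replicate 1). The share called was 40% beside 28.5% of all genes. ITGA5, a subunit of the fibronectin receptor, was at 421, 108 and 127 CPM against 6.56, 4.95 and 3.72 CPM (5.41 ± 0.77, adjusted p = 2.3e-05, and 4.52 without MDCK-NBL2 replicate 1). ITGB8, a subunit of a receptor that activates latent TGF-beta, was lower, at 29.6, 30 and 40.7 CPM against 98.1, 75.6 and 91.1 CPM (-1.41 ± 0.22, adjusted p = 6.2e-05). SPP1, the secreted glycoprotein osteopontin, was at 3660, 4930 and 8500 CPM in MDCK-II against 469, 262 and 568 CPM (-3.72 ± 0.42, adjusted p = 1.9e-06). SDC1, a heparan sulfate proteoglycan of epithelia, was higher, at 1260, 1160 and 1330 CPM against 385, 360 and 392 CPM (1.73 ± 0.25, adjusted p = 2.6e-05). SPP1 and SDC1 were members of a list of 30 matrix glycoproteins and proteoglycans with 5 higher and 6 lower (3 and 5 without MDCK-NBL2 replicate 1). The share called in that list was 36.7%. Of 36 matrix proteases and inhibitors, 8 were higher and 5 lower, a share called of 36.1%. The inhibitor TIMP2 was at 33.4, 21.8 and 20.7 CPM against 3.59, 2.83 and 3.96 CPM (2.90 ± 0.40, adjusted p = 1.8e-05).

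Receptors for TGFb differed between the lines before treatment. TGFBR1, the type I receptor kinase, was at 277, 323 and 377 CPM in MDCK-NBL2 against 74.6, 79.3 and 81 CPM in MDCK-II (2.06 ± 0.20, adjusted p = 3.4e-07). TGFBR2, the type II receptor that binds the ligand, named after its values were seen, was at 314, 282 and 292 CPM against 114, 132 and 153 CPM (1.15 ± 0.24, adjusted p = 0.0012). The co-receptor TGFBR3 was in contrast near absent from MDCK-NBL2 replicates 2 and 3. BMP7, a ligand of kidney epithelium, was at 225, 193 and 185 CPM against 79.5, 84.3 and 72.1 CPM (1.36 ± 0.19, adjusted p = 2.5e-05). The receptor BMPR1B was lower, at 27.6, 20.3 and 29.1 CPM against 58.6, 56.3 and 56.4 CPM (-1.16 ± 0.19, adjusted p = 0.00012). Of 39 tested genes of the TGF-beta and BMP pathways, 10 were higher and 4 lower, with a median of 0.30. The share called was 35.9% beside 28.5% of all genes.

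Of 38 tested Wnt genes 60.5% were called and of 18 Notch genes 61.1%, beside 28.5% of all genes, with more members higher than lower in both lists. Among the Wnt genes, 16 were higher and 7 lower (15 and 7 without MDCK-NBL2 replicate 1), with a median of 0.50. ROR2, a receptor of noncanonical Wnt signals, was at 3.39, 6.38 and 5.93 CPM with no count in MDCK-II (at least 88.3-fold, adjusted p = 1.3e-06), and the inhibitor DKK1 at 2.08, 2.78 and 1.89 CPM with no count either (at least 39.5-fold, adjusted p = 3.4e-05). LGR6, an R-spondin receptor, was at 9.91, 8.8 and 2.69 CPM against 0.069, 0.118 and 0.12 CPM (6.05 ± 0.81, adjusted p = 1.2e-05). The ubiquitin ligase RNF43, a brake on Wnt receptors, differed by 1.88 ± 0.22 (adjusted p = 2.6e-06) and the receptor FZD7 by -2.21 ± 0.31 (adjusted p = 2.3e-05). Among the Notch genes, 7 were higher and 4 lower. The receptor NOTCH1 was at 164, 159 and 145 CPM against 14.8, 18.7 and 21.1 CPM (3.10 ± 0.24, adjusted p = 9.8e-09), its ligand JAG2 at 99, 102 and 96.3 CPM against 11.2, 14.5 and 16.9 CPM (2.81 ± 0.27, adjusted p = 2.5e-07), and LFNG, which modifies Notch receptors, at 30.6, 10 and 5.12 CPM against 0.552, 0.236 and 0.72 CPM (5.14 ± 0.86, adjusted p = 0.00014, and 4.17 without MDCK-NBL2 replicate 1).

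Growth factor genes differed in both directions, with 11 of 47 tested ligands and receptors higher and 16 lower. Calls made up 57.4% of the list, beside 28.5% of all genes. MDCK-NBL2 had the EGF receptor ligand AREG and the fibroblast growth factor FGF2, which was at 2.36, 2.28 and 3.64 CPM and without a count in MDCK-II (at least 40.2-fold, adjusted p = 1.1e-07). MDCK-II had EGF, ERBB4 and the receptor FGFR4, which was at 22.6, 20 and 19.6 CPM against 2.91, 0.893 and 0.943 CPM (-3.71 ± 0.38, adjusted p = 5.6e-07, and -4.50 without MDCK-NBL2 replicate 1). KDR, a receptor for VEGF counted among the endothelial markers, was at 2.83, 3.1 and 3.36 CPM against 1.11, 0.364 and 0.539 CPM (-2.24 ± 0.51, adjusted p = 0.0024, and -2.87 without replicate 1).

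Genes of antigen presentation and the interferon response were called lower in MDCK-NBL2 more often than higher. Of 48 tested, 24 were lower, 1 was higher and 23 were not called (23 lower and 1 higher without MDCK-NBL2 replicate 1). The median log2 difference was -1.61, and 52.1% of the list was called, beside 28.5% of all genes. TAP1, the peptide transporter that loads MHC class I, was at 68.9, 61.5 and 58.4 CPM in MDCK-II against 11.5, 6.75 and 12.1 CPM (-2.66 ± 0.30, adjusted p = 1.6e-06). PSMB10, an immunoproteasome subunit, was at 38.2, 32.4 and 33 CPM against 12.7, 11.1 and 10.9 CPM (-1.58 ± 0.22, adjusted p = 1.9e-05), and the transcription factor IRF1 at 104, 117 and 91.5 CPM against 35.4, 32.8 and 23.7 CPM (-1.76 ± 0.24, adjusted p = 1.4e-05). DLA-DQA1, an MHC class II chain, was at 114, 123 and 168 CPM against 12.3, 0.794 and 5.39 CPM (-4.50 ± 0.68, adjusted p = 4.3e-05, and -5.80 without MDCK-NBL2 replicate 1 and -3.89 without replicate 2), although reads may be shared with its near-identical relatives.

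Further class II genes of the list were also called. Chosen after their values were seen, the class II chain DLA-DRA differed by -4.46, the loading factors DLA-DMA and DLA-DMB by -2.03 and -4.01, the invariant chain CD74 by -1.65 and the class II transactivator CIITA by -2.76, all called lower. The class I light chain B2M, chosen in the same way, differed by -1.56 and was also called. IFIT3, an interferon-induced antiviral protein, was at 7.18, 4.91 and 6.36 CPM against 0.554, 0.0331 and 0 CPM, a ratio of 220 without replicate 1 (39.2 to 8720, adjusted p = 0.00019). Other interferon-induced genes, also chosen after their values were seen, did not pass the test, among them MX1 at -0.14, OAS1 at -0.05 and ISG15 at -0.71.

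Cytokine and NF-kB genes were lower more often than higher, 14 against 6 of 34 tested, with a median of -1.01. Calls made up 58.8% of the list, beside 28.5% of all genes. BIRC3, an NF-kB target that restrains cell death, was at 110, 102 and 90.2 CPM in MDCK-II against 19.1, 9.46 and 11.2 CPM (-2.93 ± 0.53, adjusted p = 0.00026). The chemokines CX3CL1 and CXCL16 differed by -1.31 ± 0.14 and -1.27 ± 0.21 (adjusted p = 1e-06 and 0.00013), and CD40, a receptor of immune and epithelial cells, was at 8.49, 8.64 and 8.64 CPM against 0.762 CPM in MDCK-NBL2 replicate 1 and no count in the others, at least 108-fold lower without it (adjusted p = 1.4e-07). CCL5 was at 4.76, 0.157 and 0 CPM in MDCK-II against 0.139, 0.0331 and 0 CPM, and its call (adjusted p = 0.047) rested on 1 library, since the log2 difference of -4.64 became -0.85 without MDCK-II replicate 1 (adjusted p = 0.81). Its adjusted p was also 0.08, 0.18 and 0.098 without MDCK-NBL2 replicates 1, 2 and 3.

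Mucin and mucosal secretion genes were called in 55% of 20 cases, beside 28.5% of all genes. Of the 20, 8 were higher in MDCK-NBL2 and 3 lower, with a median of 0.99. In the fit of the 6 day 0 libraries alone, 6 of the list were higher and 5 lower, so this lean depends on the fit. TFF1, a trefoil peptide secreted with mucus, was at 255, 309 and 156 CPM against 0.552, 0.275 and 0.12 CPM (9.46 ± 0.67, adjusted p = 3.3e-09). GALNT6, which starts mucin-type glycosylation, was at 140, 104 and 87 CPM against 4, 4.52 and 5.76 CPM (4.56 ± 0.35, adjusted p = 1.1e-08). SFTPD was one of the 3 members lower in the main fit. At the apical membrane, 9 of 41 tested genes were higher and 7 lower, a share called of 39% beside 28.5% of all genes. PROM2, a protein of membrane protrusions in the epithelial list, was at 97.1, 162 and 176 CPM against 5.52, 6.21 and 4.92 CPM (4.69 ± 0.38, adjusted p = 2e-08), and PODXL, the anti-adhesive sialomucin of apical surfaces, at 99.8, 77.3 and 90.6 CPM against 610, 691 and 621 CPM (-2.84 ± 0.28, adjusted p = 3.2e-07).

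Few proliferation genes were called. Of 60 tested cell cycle and mitosis genes, 4 were called, all higher in MDCK-NBL2, a share of 6.67% beside 28.5% of all genes. CDC25B, a phosphatase that starts mitosis, was at 116, 142 and 119 CPM against 68.7, 57.5 and 55.9 CPM (1.05 ± 0.25, adjusted p = 0.0031). The cyclin gene CCND1 was at 158, 175 and 181 CPM against 76.2, 70.3 and 84.2 CPM (1.16 ± 0.35, adjusted p = 0.017), with adjusted p = 0.051 and 0.065 without MDCK-II replicates 1 and 2. The calls of CCND2 and UBE2C (adjusted p = 0.027 and 0.032) were lost without MDCK-II replicate 1 or 2, or MDCK-NBL2 replicate 2 or 3. That of UBE2C was also lost without MDCK-II replicate 3. In the fit of the 6 day 0 libraries alone, 12 genes of the list were called higher and 9 lower, beside 42.6% of all genes called in that fit.

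The sterol and the xenobiotic lists leaned towards lower levels in MDCK-NBL2, with single genes far in the other direction. Of 38 sterol and fatty acid synthesis genes, 12 were lower and 3 higher, with a median of -0.28. The share called was 39.5% beside 28.5% of all genes. ACACA, the acetyl-CoA carboxylase that commits carbon to fatty acids, was at 145, 135 and 125 CPM against 320, 365 and 303 CPM (-1.28 ± 0.13, adjusted p = 5.8e-07). The 3 higher members were FADS1, the cholesterol exporter ABCA1 and the acetyl-CoA synthetase ACSS2. ABCA1 was at 42.1, 33 and 47.5 CPM against 0.621, 0.707 and 0.72 CPM (5.88 ± 0.67, adjusted p = 2e-06). Of 35 xenobiotic and glutathione genes, 12 were lower and 4 higher, a share called of 45.7%. GSTP1, a glutathione transferase, was at 103, 75 and 66.8 CPM against 264, 302 and 241 CPM (-1.72 ± 0.16, adjusted p = 1.6e-07), GCLC, which makes glutathione's precursor, at 179, 130 and 103 CPM against 417, 420 and 313 CPM (-1.48 ± 0.23, adjusted p = 6.7e-05), and their known regulator NFE2L2 differed by -0.97 ± 0.15 (adjusted p = 5.2e-05).

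Glycolysis and hypoxia genes numbered 8 higher and 5 lower of 38, a share called of 34.2% beside 28.5% of all genes. The muscle-type and neuron-type enolases moved oppositely. ENO3 was at 43.4, 43 and 49.6 CPM against 3.45, 3.5 and 2.76 CPM (3.78 ± 0.50, adjusted p = 1.1e-05), and ENO2 at 2.7, 1.39 and 3.91 CPM against 16.1, 15.3 and 17.2 CPM (-2.70 ± 0.40, adjusted p = 3.6e-05). The hypoxia-inducible factor EPAS1 was at 71.8, 81.7 and 103 CPM against 30.4, 27.2 and 18.1 CPM (1.75 ± 0.34, adjusted p = 0.00062). Genes of the ATF4 and unfolded protein response list were called in 7 of 35 cases, 3 higher and 4 lower, a share of 20%. Among them, the asparagine synthetase ASNS was at 118, 101 and 99.9 CPM against 238, 259 and 250 CPM (-1.23 ± 0.34, adjusted p = 0.01). Of 50 primary cilium genes, 8 were higher and 5 lower, a share called of 26%, near that of all genes. The intraflagellar transport genes IFT52 and IFT22 differed by 1.31 ± 0.18 and -1.26 ± 0.21 (adjusted p = 1.2e-05 and 0.00013).

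Markers of other cell types were checked as whole lists. The 12 fibroblast markers summed to 0.668 to 1.45 CPM in the MDCK-II libraries and to 372, 157 and 333 CPM in the MDCK-NBL2 libraries, nearly all of it from PDPN and COL1A2. The fibroblast markers DPT, FAP, TCF21 and THY1 had no count in any of the 6 libraries, and COL1A1, COL3A1 and LUM, chosen after their values were seen, were at 3.67, 2.49 and 0.416 CPM in MDCK-NBL2 replicate 1 and at 0.269 CPM or less in replicates 2 and 3. The part of such cells in the matrix values above was not tested beyond these levels. Endothelial markers summed to 12.1 to 19.1 CPM in MDCK-II and 8.59 to 16.8 CPM in MDCK-NBL2, and leukocyte markers to 4.2 to 5.04 and 3.1 to 3.88 CPM, with CD3D, CD3E, CD53 and MS4A1 at 0 throughout. Neuronal markers summed to 96.1 to 173 CPM against 28.9 to 78.7 CPM, most of it MAP2, a microtubule protein that differed by -1.77 ± 0.38 (adjusted p = 0.0013, and -2.40 without MDCK-NBL2 replicate 1). The podocyte markers NPHS1, PTPRO and WT1 had no count, and the list of podocyte and urothelial markers summed to 928 to 993 CPM in MDCK-II and 565 to 743 CPM in MDCK-NBL2. Of its 6 tested members PODXL was lower and 4, UPK3A among them, were higher, a share called of 83.3% beside 28.5% of all genes. The calls of UPK1A and UPK3B (adjusted p = 0.031 and 0.028) were lost when any day 0 library other than MDCK-NBL2 replicate 1 was left out.

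The line difference was also measured in untreated cells at day 4. In that group, the library labelled replicate 2 of MDCK-NBL2 stood far from its group, with CAPN14 at 146 CPM in it against 0.569 and 3.33 CPM in replicates 1 and 3 and 124 to 203 CPM in TGFb-treated MDCK-NBL2, so values are given without it. Of the 3558 genes called at day 0, 2518 (70.8%) were also called at day 4 in the same direction and 6 in the opposite one. With that library these were 2643 (74.3%) and 8. Day 4 calls over all genes numbered 4294, or 4527 of the 12466 tested with that library. The 2 time points share no library. Of the 176 named genes called at day 0, 159 were called at day 4 and 175 had the same sign. Those not called at day 4 included the cilium signalling kinesin KIF7, at -2.10 on day 0 and 0.04 on day 4, the matrix protein FBLN2, at -2.37 and -0.22, and the lipoprotein receptor VLDLR, at 3.14 and 0.61 (adjusted p at day 4 = 0.95, 0.75 and 0.21). In the direct test of the change, given below, KIF7 and FBLN2 were not called (adjusted p = 0.079 and 0.088 without that library). VLDLR was called there only without that library (adjusted p = 0.046, or 0.072 with it).

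**Figure D5:**
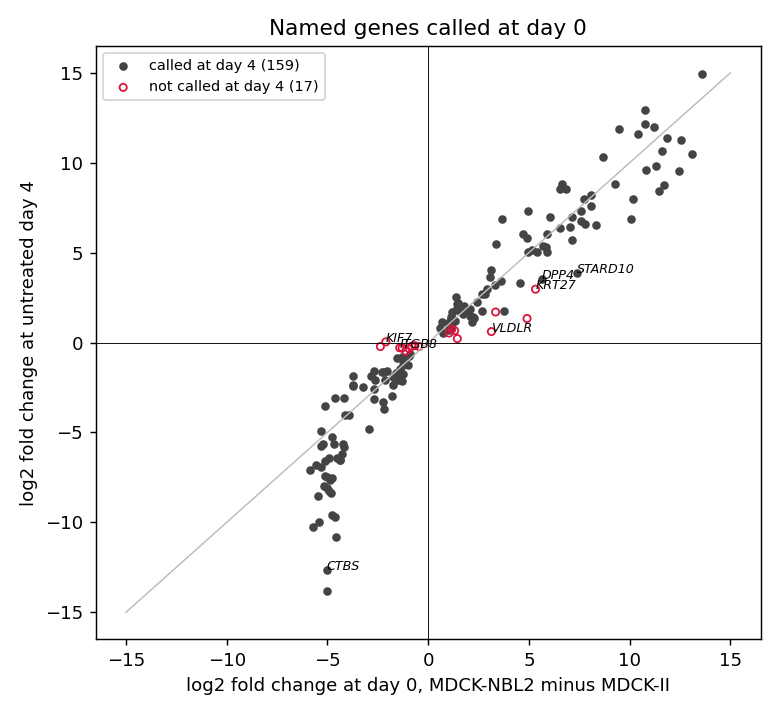
Log2 fold change, MDCK-NBL2 minus MDCK-II, at untreated day 4 without MDCK-NBL2 replicate 2 (vertical axis) against that at day 0 (horizontal axis) for the 176 named genes called at day 0. Filled points are the 159 called at day 4, open points the 17 not called, and the grey line marks equal values; many genes lower in MDCK-NBL2 lie below the line near -5 on the horizontal axis, where MDCK-NBL2 day 0 replicate 1 carries MDCK-II genes.

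The difference between the 2 time points was tested directly, as the line contrast at day 0 minus that at day 4. It was called for 14 of 12466 genes (0.112%), for 70 without MDCK-NBL2 day 4 replicate 2 and for 8 without MDCK-NBL2 day 0 replicate 1. DPP4 was the named gene among the 14. It was at 14.3, 14.5 and 13.7 CPM in MDCK-II at day 4 and at 189, 148 and 133 CPM in MDCK-NBL2, so that its line difference was 5.64 at day 0 and 3.51 at day 4 without replicate 2. The others were not covered by the rule for named genes and were chosen after their values were seen. FABP3, a fatty acid carrier, was at 75.6, 99.5 and 99.5 CPM in MDCK-II at day 0 and at 820, 558 and 450 CPM at day 4, while MDCK-NBL2 held 38.7 to 59.1 CPM and 23.1 to 43.4 CPM (difference of the contrasts 3.21, adjusted p = 0.0036). PID1, an adaptor of lipoprotein receptors, differed between the lines by -2.89 at day 0 (adjusted p = 1.8e-06) and by 0.07 at day 4 (adjusted p = 0.89). LAMC1, a laminin chain, differed by -0.04 at day 0 (adjusted p = 0.87) and by 1.06 at day 4 (adjusted p = 5.1e-05).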

How the data were processed

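The authors deposited 1 table of whole-number counts per gene for 24 stranded mRNA libraries, not normalized. STAR 2.5.3a, RSEM 1.3.0, FastQC and the dog build CanFam3.1 were named, per the submitters' processing notes. Their roles, the strand setting, the annotation and any rounding are not stated in the sources used here. The table lists 32704 genes, 18660 of them with a symbol. Neighbouring genes were read from a RefSeq table of another dog assembly that held 8506 of 8725 detected symbols, and no coordinates or sequences are given.

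The line contrast was tested by the quasi-likelihood F test of edgeR 4.0.16 (R 4.3.3), in one model with a mean per group over all 24 libraries (16 residual degrees of freedom), so that the 6 day 0 libraries share the spread of the 8 groups. Library sizes were scaled by TMM, filterByExpr (minimum count 10, minimum total 15) left 12466 genes, and the prior count was 0.125. An adjusted p (Benjamini-Hochberg over all genes tested) under 0.05 was called. SE was obtained by dividing the log2 fold change by the root of F. CPM are per scaled library size. Bounds use 3 counts over the group, and ratios of 1 to 3 counts carry exact 95% counting intervals.

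The named genes were 11 fixed markers, the 12 largest differences each way with at least 10 CPM in the higher line and no overlap, up to 4 members per list by adjusted p and 2 by size, and up to 15 near-absent genes per direction. The 36 lists held 1358 genes, of which 1242 were in the table. The members, lists and tests were chosen with earlier results of these data known. Alternatives were DESeq2 1.42.0 size factors and Wald test, no filter, a replicate block, the 6 libraries alone, other CPM limits and each library left out. The fit of the 6 libraries less MDCK-NBL2 replicate 1 was chosen after seeing the data. Values of some genes are not reported here.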

Additional observations from a re-analysis of the deposited data

Results flagged for a closer look

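The line difference at day 0 and the line difference at untreated day 4 were compared in one test, and 14 genes differed between the 2 times. Among the named genes this was DPP4, whose log2 difference between the lines was larger by 2.18 at day 0 than at day 4 (adjusted p = 0.0036), with all MDCK-NBL2 libraries above all MDCK-II libraries at both times. Beyond the libraries set apart above and the fits with a library left out, groups of 3 were not searched for single outlying samples.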

How the results depend on the processing

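The direction of every named gene was kept under every alternative that gave it a value, and of the 176 named calls 162 held with each of the 6 day 0 libraries left out in turn. The DESeq2 Wald test lost 6 named calls and gained 1. The fit of the 6 day 0 libraries alone gained 2, CDH1 and PAX8. Counts of calls in the other settings stayed within 1.5 times of 3558, with these exceptions. The 6 day 0 libraries less MDCK-NBL2 replicate 1, a fit added after seeing the data, called 5478 genes, 2856 higher and 2622 lower. A replicate block on the 6 day 0 libraries called 2759 genes higher (5261 in all, against 5017 without the block and 3718 with the block on all 24 libraries). The replicate numbers did not meet the criterion for pairing: deviations of same-numbered libraries correlated at 0.07, 0.14 and 0.20, although each library correlated best with its own number. With MDCK-NBL2 replicate 1 held to the same limit, 3 genes rather than 75 were near absent from MDCK-NBL2, by construction. Counting detection from 10 CPM left 30 rather than 46 near absent from MDCK-II, by construction. The difference between day 0 and day 4 was called for 8 genes without MDCK-NBL2 day 0 replicate 1 and for 70 without MDCK-NBL2 day 4 replicate 2, and no other library was left out of that test. Of 72 list counts, 33 moved by over 1.5 times in the added fit, 28 and 20 on the 6 libraries with and without the replicate block, 12 and 14 without MDCK-II replicates 1 and 2, 13 without MDCK-NBL2 replicate 2, and 8 or fewer in each other setting. The causes were not tested. Depth limits statements on genes without a count to the floors given.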

Other observations

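Other named genes, members of lists counted above, were also called at day 0. A pair of genes of regulated secretion was higher in MDCK-NBL2. RAB27B, a small GTPase of secretory vesicles, was at 9.77, 19 and 18.3 CPM against 1.04, 2.04 and 1.56 CPM (3.30 ± 0.44, adjusted p = 1.1e-05), and its effector SYTL1 at 39.6, 15.9 and 15.2 CPM against 4.42, 3.22 and 3.36 CPM (2.69 ± 0.41, adjusted p = 5.3e-05, and 2.09 without MDCK-NBL2 replicate 1). The sialyltransferase ST6GAL1 was at 109, 195 and 236 CPM against 52.9, 63.2 and 60 CPM (1.62 ± 0.19, adjusted p = 2.8e-06), and the lactate exporter SLC16A3 at 67.8, 89.6 and 72 CPM against 13.8, 18.1 and 14.6 CPM (2.30 ± 0.43, adjusted p = 0.00044). In the other direction, CTSK, a collagen-degrading cysteine protease, was at 142, 149 and 110 CPM in MDCK-II against 18.1, 3.64 and 4.58 CPM (-3.92 ± 0.55, adjusted p = 2.1e-05, and -5.06 without MDCK-NBL2 replicate 1). ABCC2, an apical exporter of conjugated compounds, was at 31.2, 35.4 and 18 CPM against 3.81, 0.198 and 0.135 CPM (-4.35 ± 0.75, adjusted p = 0.00017, with -7.21 without MDCK-NBL2 replicate 1 and -3.67 without replicate 2).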
